A study of Mus musculus with 13 samples.

Results

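The data describe 10 genes for interleukins, related cytokines and interleukin 1 receptors in fibroblasts of the mouse mammary gland: Il6, Il11, Lif, Il18, Il33, Il34, Tslp, Csf1, Il1r1 and Il1r2. They were taken by symbol from the 32285 genes of the count matrices, without a cut on their values but with earlier results of these data known, and all 10 were detected in every library. Fibroblasts were barcodes with 500 to 7500 genes and at most 10% mitochondrial UMIs (unique molecular identifiers, each standing for 1 captured RNA molecule), with at least 50 UMIs of Dcn, Lum and Col1a2 together per 10000, and with no UMI of Epcam, Pecam1, Rgs5, Sox10, Ptprc or Myog. This gate kept 100523 of 120355 barcodes. Every library was made from female mammary stroma with a 3′ droplet chemistry. Wild-type C57BL/6 glands were taken at puberty (4-week), in adult virgins (9-week), at day 14.5 of pregnancy, day 10 of lactation and day 4 of involution, with 1 library of pooled animals each. Further wild-type C57BL/6 females of 9 weeks carried placebo pellets or pellets of medroxyprogesterone acetate with estradiol (MPA+E), with 2 libraries each. These 9 wild-type libraries held stromal cells sorted for the absence of lineage markers and of CD24. Hyperplastic glands and tumors, with 2 libraries each, came from raGFP-Wnt1 mice (Pdgfra-GFP KI/+ MMTV-Wnt1 T/+, C57BL/6 FVB mixed background) of 45 weeks (replicate 1) and 17 weeks (replicate 2), in which a mammary tumor virus promoter drives Wnt1 in the gland and GFP marks Pdgfra-expressing cells. Their cells were sorted for GFP, and the hyperplasia and tumor libraries of 1 number came from the same mouse.

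Interleukins are secreted proteins through which stromal, epithelial and immune cells adjust each other's behavior. IL-6, IL-11 and LIF share the receptor subunit gp130 (Il6st) and signal through STAT3, while CSF1 and IL-34 are both ligands of CSF1R, the receptor that sustains macrophages. IL-18 and IL-33 belong to the interleukin 1 family, in which IL-33 is held in the nucleus and released by damaged cells to act on ST2 (Il1rl1), and TSLP acts on dendritic cells and other immune cells. IL1R1 is the signaling receptor of interleukin 1, and IL1R2 is a decoy that binds interleukin 1 without signaling.

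The upstream windows of 4 members are given here, chosen with the results known (Il33 and Il1r2, which passed under hormone over all fibroblasts, Il6, whose hormone change differed between classes, and Lif, with the largest tumor change), as the 250 bases before the annotated start in RefSeq (GRCm38.p6, plus strand in each case), in lower case with motif matches in capitals. Promoter windows were searched for 8 of the 10 members, all but Il34 and Tslp. The motifs searched on both strands were the kappaB site, AP-1 (TGANTCA), CRE (TGACGTCA), the E-box CACGTG, a STAT site (TTCNNNGAA) and the steroid receptor half-site AGAACA, which were present in 7.25%, 6.75%, 1.55%, 6.02%, 7.02% and 16.1% of all 32851 windows of the same length.
Il6, chr5:30012864-30013113: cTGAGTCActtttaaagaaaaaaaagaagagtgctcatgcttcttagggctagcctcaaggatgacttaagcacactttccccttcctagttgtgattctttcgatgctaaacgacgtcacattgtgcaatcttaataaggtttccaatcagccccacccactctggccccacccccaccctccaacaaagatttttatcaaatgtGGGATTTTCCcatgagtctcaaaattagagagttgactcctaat
Lif, chr11:4257318-4257567: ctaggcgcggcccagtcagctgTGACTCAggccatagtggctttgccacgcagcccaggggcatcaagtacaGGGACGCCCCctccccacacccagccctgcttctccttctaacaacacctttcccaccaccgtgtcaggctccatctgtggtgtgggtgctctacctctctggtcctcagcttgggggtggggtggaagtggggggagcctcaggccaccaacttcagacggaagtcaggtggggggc
Il33, chr19:29924863-29925112: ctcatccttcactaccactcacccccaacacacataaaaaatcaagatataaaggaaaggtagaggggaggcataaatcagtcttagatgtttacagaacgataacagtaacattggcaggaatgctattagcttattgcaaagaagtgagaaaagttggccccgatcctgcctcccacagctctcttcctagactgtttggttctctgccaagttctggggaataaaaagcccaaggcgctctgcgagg
Il1r2, chr1:40085843-40086092: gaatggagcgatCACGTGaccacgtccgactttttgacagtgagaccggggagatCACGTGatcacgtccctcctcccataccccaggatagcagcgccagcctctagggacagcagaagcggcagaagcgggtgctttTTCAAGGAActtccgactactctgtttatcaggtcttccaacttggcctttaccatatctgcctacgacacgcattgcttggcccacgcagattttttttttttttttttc
The Il6 and Lif windows each held 1 kappaB match and 1 AP-1 match, the kappaB match 44 bases before the start in Il6 and 178 bases before it in Lif. The Il1r2 window held a pair of E-boxes and a STAT match, and the Il33 window held none of the motifs. A match is a description of these letters and not a measured binding site.

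The libraries held 5230 to 14424 barcodes and 4236 to 11951 fibroblasts, with 47521842 to 102522735 fibroblast UMIs in total and a median of 3990 to 20256 UMIs per fibroblast, which was 8703 and 8311.5 in hyperplasia and 10824 and 20256 in the tumors. A UMI of Pdgfra, which marks fibroblasts, was present in 51.2% to 93.3% of them. Any pair of libraries shared at most 51 barcodes. Summed markers of immune cells reached 1.9 to 10.7 counts per 1000000 UMIs (CPM) over the wild-type fibroblasts, 7.5 and 8.7 in hyperplasia and 18.9 and 11.9 in the tumors. Pericyte markers summed to 7.7 to 14.5 CPM outside the tumors and to 30.03 and 34.6 CPM in them, and milk protein and other epithelial markers were highest in lactation (411 CPM), pregnancy (46.5 CPM) and involution (6.37 CPM) and at most 1.51 CPM elsewhere. Each hormone library pooled 2 females, so p-values between 2 groups rest on the spread between a pair of pools or of mice. The later interaction tests used sums of several cell classes per library, so their p-values rest on the spread of such sums within libraries. The limma-voom fit over all fibroblasts joined puberty and adult as normal, so the difference between these stages entered its spread.

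Over all fibroblasts of a library, Tslp and Csf1 varied least between libraries and Lif, Il18, Il33, Il11 and Il6 most. The highest library exceeded the lowest 17.2-fold for Lif, 13.1-fold for Il18, 11.99-fold for Il33, 11.0-fold for Il11 and 10.2-fold for Il6. It exceeded the lowest 8.79-fold for Il1r2, 5.45-fold for Il34, 2.80-fold for Il1r1, 2.24-fold for Csf1 and 2.16-fold for Tslp. The highest library was a tumor for Il6, Il11, Lif, Il33, Il34 and Il1r1, an MPA+E library for Csf1 and Il1r2, the adult gland for Il18 and a hyperplasia for Tslp. Total UMIs over all fibroblasts ranged from 4688 for Il11 to 222234 for Csf1, so the levels of Il11, Lif (10731 UMIs) and Tslp (10951 UMIs) carried the widest counting error.

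**Figure D1:**
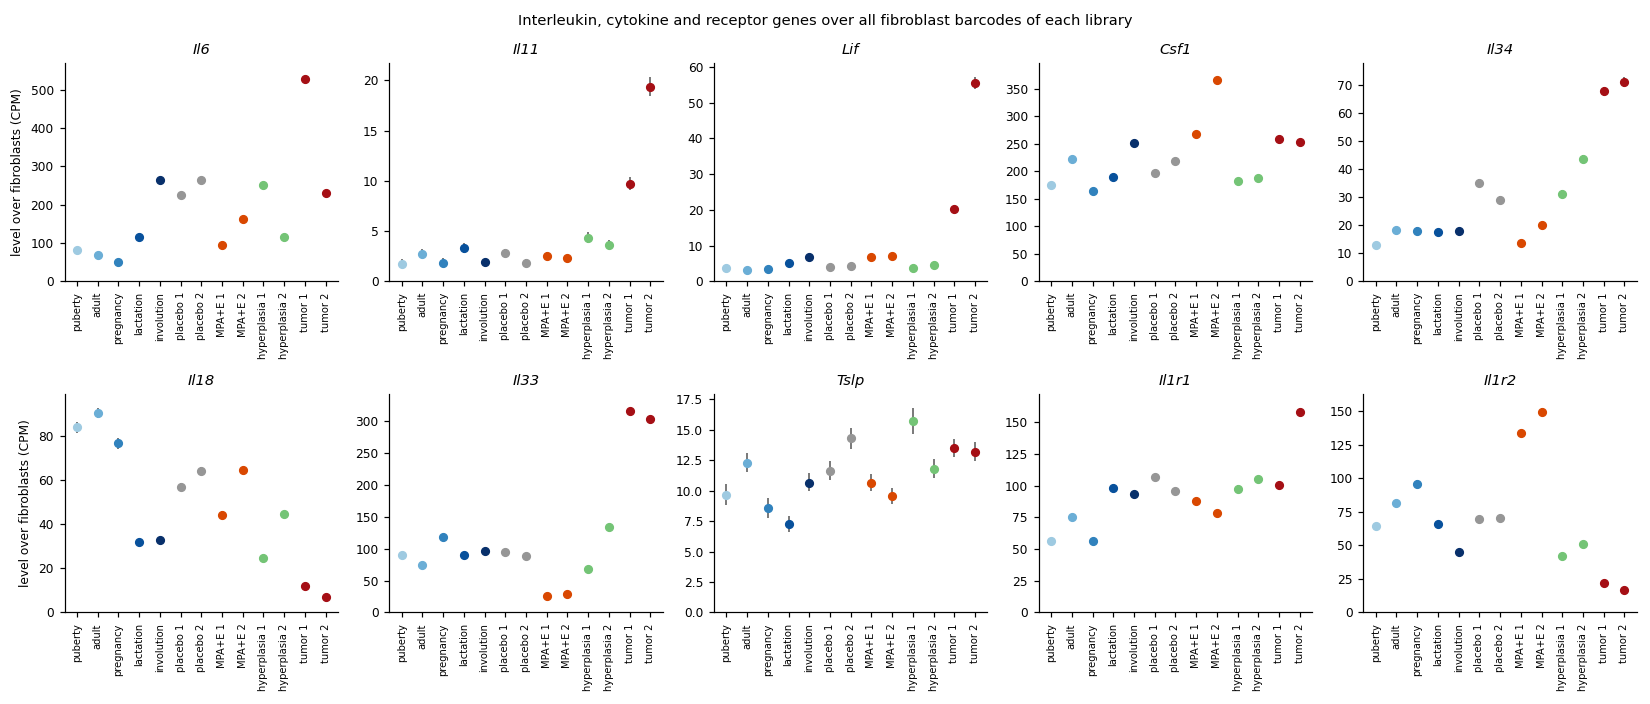
Level of each gene in CPM (linear axis from 0) over all fibroblasts of each of the 13 libraries; bars are 95% exact Poisson intervals, which cover counting error only. Il33, Il34, Il11 and Lif are highest in both tumor libraries, Il33 is lowest and Il1r2 highest in both MPA+E libraries, and Il18 is lowest in both tumor libraries.

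How many cells held a transcript differed between the genes. Csf1 was detected in 63.3% of the 73342 wild-type fibroblasts (median 7198 UMIs), Il1r1 in 39.7%, Il6 in 29.5%, Il1r2 in 28.6%, Il18 in 26.4% and Il33 in 22.8%. Il34 was detected in 11.1%, Tslp in 7.52%, Lif in 3.67% and Il11 in 1.79%. The 65545 of these fibroblasts with at least 3000 UMIs were also thinned to 3000 UMIs, and cells with fewer were left out. Among them the shares were 41.6%, 19.98%, 19.6%, 16.6%, 14.0% and 14.7% in the first order and 5.21%, 2.89%, 1.37% and 0.612% in the second. Free RNA in the droplets was judged from cell types without the gene: in 1105 pericyte barcodes (median 3792 UMIs) Il33 was detected in 0.452%, Il18 in 0.271% and Il1r2 in 1.09%, all under the fibroblast shares. Lif was detected in 0.181% and Il11 in 0.362% of pericytes. In 430 epithelial barcodes (median 6366.5 UMIs) Il33 was detected in 3.26%, Il18 in 1.86%, Lif in 2.09% and Il11 in 3.72%, so the share of wild-type fibroblasts with Il11 was under that of epithelial cells and is not read as a fibroblast signal by itself. Il1r2 was detected in 5.35% of epithelial barcodes, at 50.4 CPM, and Il34 in 7.44% of them against 11.1% of fibroblasts.

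Fibroblasts were then divided by clustering into classes named from fixed markers: progenitor (Pi16, Dpp4 and others), preadipocyte (Fabp4, Cd36), ECM remodeling (Crabp1, Pla2g7), lobular (Thbs4, Bmp5) and adipogenesis-regulatory (Gdf10, Clec11a), with a small class of cycling cells (Top2a, Mki67) that reached 50 cells in 4 libraries. These names mean likeness by markers, and clustering was done separately for the stages, for the hormone experiment and for the raGFP-Wnt1 mice. The 10 genes were left out of the clustering features, but classes come from the same cells, so the following class levels are a description without a test. Il18 and Il33 were led by the progenitor class. The median Il18 level over 13 libraries was 117 CPM in progenitor cells and 3.25 to 11.4 CPM in the 4 others apart from cycling cells (36.4 CPM over 4 libraries), and the progenitor level exceeded that of the other named classes summed together (cycling cells included) by 3.36 ± 0.58 on the log2 scale (mean ± SD over 13 libraries, higher in 13 of 13). For Il33 the medians were 217 CPM in progenitor, 82.6 in adipogenesis-regulatory, 11.5 in lobular, 6.89 in preadipocyte and 5.50 in ECM remodeling cells, with 117 CPM in the cycling cells of 4 libraries, and the progenitor excess was 2.97 ± 1.24 (13 of 13). In tumor 2 the adipogenesis-regulatory level of Il33 was the higher of the 2. In the stage libraries Il33 was also among the 10 leading genes of the progenitor cluster.

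The receptors divided between classes. Il1r2, the decoy, was led by the progenitor class (median 107 CPM, excess 1.60 ± 0.69 on the log2 scale, higher in 12 of 13 libraries), with 47.4 CPM in preadipocyte, 44.6 in adipogenesis-regulatory and 9.13 in ECM remodeling cells. Il1r1, the signaling receptor, was led by the adipogenesis-regulatory class (median 169 CPM, excess 0.86 ± 0.24, 13 of 13) with 139 CPM in preadipocyte, 74.1 in progenitor and 66.6 in ECM remodeling cells. Il6 was led by that class too, with a median of 335 CPM against 152 in preadipocyte, 139 in progenitor, 134 in lobular and 78.6 in ECM remodeling cells (excess 1.34 ± 0.76, 13 of 13). Taken singly, that class was the highest in 10 of 13 libraries for each of Il1r1 and Il6. Preadipocyte cells were highest in 3 for Il1r1, and progenitor cells in 2 and preadipocyte cells in 1 for Il6. The 2 ligands of CSF1R were placed apart: Il34 was led by ECM remodeling cells (median 51.3 CPM, excess 1.77 ± 1.10, 12 of 13) and was at 2.76 CPM in adipogenesis-regulatory cells, whereas Csf1 lay between 148 CPM in ECM remodeling and 239 CPM in progenitor cells. The progenitor excess of Csf1 (0.36 ± 0.38, higher in 9 of 13) and Lif (0.44 ± 0.78, 11 of 13) and the ECM remodeling excess of Il11 (0.16 ± 0.55, 9 of 13) were no larger than about 1 SD; in cycling cells Il11 had a median of 8.39 CPM, with 0.824 and 1.26 CPM in puberty and pregnancy and 15.5 and 27.2 CPM in the tumors. Tslp was led by lobular cells, with a median of 19.2 CPM and an excess of 1.01 ± 0.62 in 12 of the 12 libraries with enough lobular cells.

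**Figure D2:**
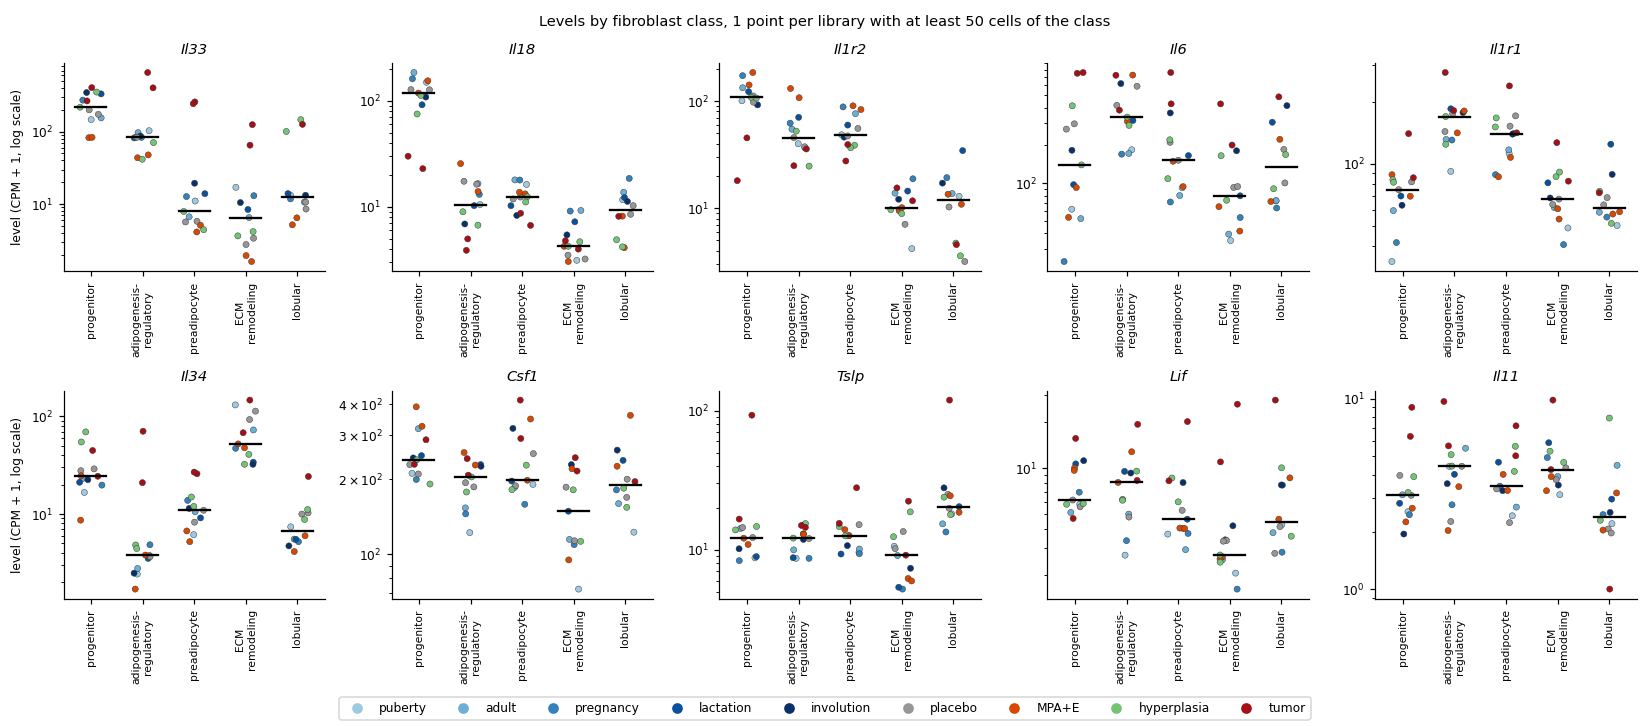
Level of each gene (CPM + 1, log axis) in 5 fibroblast classes, 1 point per library with at least 50 cells of the class, colored by group; black lines are medians over libraries. Il18 stands highest in the progenitor class in every library, Il34 in ECM remodeling and Il1r1 in adipogenesis-regulatory cells in most of them, and for Il33 the tumor points in the preadipocyte and ECM remodeling columns lie above all others.

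Over the 68 sums of a named class in a library (4 of them of cycling cells), the genes with the pattern most like each member were found by Pearson correlation of log2(CPM + 1) among 9682 genes, as a description over sums that share libraries. Among the nearest genes were Emilin2 (0.92) and Krt36 (0.92) for Il18, and Cpne8 (0.85), Cd200 (0.83) and Ildr2 (0.82) for Il33. They were Glis3 (0.77), Dram1 (0.75) and Socs3 (0.75), a feedback inhibitor of STAT3 signaling, for Il6, and Tnfrsf21 (0.88), Wls (0.85) and Fam20a (0.81) for Il34. For the receptors they were G6pdx, Clip4 and Pygl (each 0.81) for Il1r2 and Fam78b (0.75), Acvr2a (0.74) and Jak2 (0.73) for Il1r1. The highest correlation was 0.76 for Lif, 0.72 for Csf1, 0.65 for Tslp and 0.64 for Il11.

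Across the developmental stages, Il6 and Il18 moved most. Il6 started at 81.5 CPM in puberty and 69.1 in adult virgins, was lowest at 51.7 in pregnant glands and reached 116 in lactating and 265 in involuting ones. Involution thus stood 5.13-fold above pregnancy (95% counting interval 4.92 to 5.35). Il18 was at 83.8, 90.2 and 76.7 CPM in puberty, adult and pregnancy and at 31.8 and 32.9 CPM in lactation and involution, so the last 2 stages lay together well under the first 3. A single library per stage allows no test, and these intervals reflect only the counting of molecules. Among genes at 5 CPM or more in either stage, 8.53% differed at least 2-fold between lactation and pregnancy, and of the members Il6 (2.24-fold higher in lactation, 2.14 to 2.35) and Il18 (2.41-fold lower, 2.28 to 2.55) did so. Between involution and lactation 3.14% of genes did so, and of the members Il6 (2.29-fold higher, 2.23 to 2.35). Between puberty and adult (1.86% of genes) and between pregnancy and adult (1.29%) no member reached 2-fold, the nearest being Il33, 1.59-fold higher in pregnancy (1.53 to 1.65). In the stages Lif was highest in involution (6.87 CPM against 3.22 in the adult), Il1r2 rose from 64.6 CPM in puberty to 95.7 in pregnancy and stood at 45.4 in involution, and Il1r1 was highest in lactation (98.1 CPM against 56.6 in pregnancy). Csf1, Il33, Il34 and Tslp kept within 1.69-fold over the 5 stages.

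Inside the 5 main classes, too, Il6 was highest in involution. Progenitor cells held 61.3, 51.5, 22.9, 96.7 and 182 CPM from puberty to involution, preadipocyte cells 91.3, 79.0, 70.1, 165 and 362 CPM, and adipogenesis-regulatory cells 184, 172, 170, 315 and 620 CPM. Lobular cells went from 62.7 CPM in pregnancy to 305 in lactation and 414 in involution. ECM remodeling cells held 34.1, 38.5, 52.5, 78.6 and 181 CPM, without the low in pregnancy. The unnamed cluster 6, with the milk protein genes Wap and Csn2 among its leading genes and holding 12.6% of lactation fibroblasts, did not have the pattern, with 7.44, 14.3, 6.02, 6.75 and 13.2 CPM. Il18 in progenitor cells was at 149, 184 and 161 CPM in the first 3 stages and at 90.9 and 108 CPM in lactation and involution, and the progenitor share of fibroblasts moved with it, from 31.0% in pregnancy to 19.9% in lactation. Il33 inside progenitor cells ran the other way, at 146 and 154 CPM in puberty and adult, 272 in pregnancy and 332 and 346 in lactation and involution, while its level over all fibroblasts stayed between 73.9 and 118 CPM. Summed genes known to be induced by tissue dissociation, such as Fos and Hspa1b, stood at 18940, 23614, 20576, 23347 and 28212 CPM from puberty to involution. Involution was highest for both these genes and Il6, lactation was near the adult for these genes, and their part in the Il6 levels was not tested.

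Under MPA+E, Il33 fell and Il1r2 rose over all fibroblasts. Il33 was at 94.5 and 87.8 CPM in the placebo libraries and at 26.4 and 29.4 CPM in the MPA+E libraries, so every hormone library lay under both placebo libraries (log2 fold change -1.69 ± 0.12 SE, edgeR quasi-likelihood test, adjusted p = 0.00716). Il1r2 was at 69.6 and 70.5 CPM under placebo and at 134 and 150 CPM under MPA+E (1.03 ± 0.13, adjusted p = 0.0221). These 2 of 10 members passed an adjusted p of 0.05, against 4.33% of the 15642 genes tested, and the median change was -0.20 over the members and 0.01 over all genes. With placebo 1 left out the adjusted p was 0.0515 for Il33 and 0.163 for Il1r2, and with placebo 2 left out 0.0519 and 0.12, when 22 and 42 genes passed in all. The changes themselves stayed between -1.83 and -1.58 for Il33 and between 0.89 and 1.15 for Il1r2. Summed endothelial markers went from 0.792 and 1.05 CPM under placebo to 1.71 and 1.72 CPM under MPA+E (1 of 4 called higher by edgeR and 0 by DESeq2 or limma-voom, 3 with an unadjusted p under 0.05 by edgeR, median change 1.52), and their part was not tested.

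The other members had unequal spread. Il34 was at 34.9 and 29.1 CPM in the placebo libraries against 13.6 and 20.3 in the hormone libraries (-0.89 ± 0.23, adjusted p = 0.124), Lif at 3.93 and 4.27 against 6.73 and 7.13 CPM (0.77 ± 0.15, adjusted p = 0.0695) and Csf1 at 198 and 219 against 267 and 367 CPM (0.62 ± 0.22, adjusted p = 0.224). Il6 was at 226 and 264 CPM under placebo, with 94.97 and 162 CPM in the MPA+E libraries (-0.91 ± 0.31, adjusted p = 0.213). The groups did not overlap for these 4 genes, and with Il33, Il1r2, Il1r1 and Tslp 8 of 10 members did not overlap, against 43.6% of all genes tested. Il1r1 (107 and 95.6 against 88.2 and 78.7 CPM), Tslp (11.6 and 14.3 against 10.7 and 9.54), Il18 (57.0 and 64.0 against 44.3 and 64.5) and Il11 (2.82 and 1.87 against 2.54 and 2.28) had adjusted p of 0.204 to 0.93. In the adult library of the stages, outside this comparison, Il6 was at 69.1 CPM, under the placebo and the MPA+E libraries alike. Summed dissociation-induced genes stood at 30747 and 26680 CPM under placebo and at 25353 and 25557 CPM under MPA+E (median change -0.09). Their part in the Il6 values was not tested. The share of cells with an Il33 UMI after thinning moved with the level, from 16.7% and 16.1% of fibroblasts under placebo to 6.08% and 6.54% under MPA+E. In bulk sums of this kind fewer cells of a class and less RNA per cell cannot be told apart, so the same test was run within classes.

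Within the progenitor class, Il33 was at 199 and 172 CPM under placebo and 81.5 and 82.5 CPM under MPA+E (-1.16 ± 0.12, adjusted p = 0.0196), and Il6 was at 296 and 269 against 52.7 and 91.7 CPM (-1.94 ± 0.29, adjusted p = 0.0375). These were the 2 members called there, against 2.40% of genes. In the adipogenesis-regulatory class Il1r2 rose (44.6 and 36.4 against 106 and 130 CPM, 1.62 ± 0.17, adjusted p = 0.00407) and Il33 fell (83.1 and 82.6 against 46.7 and 42.6 CPM, -0.83 ± 0.12, adjusted p = 0.0126), against 3.64% of genes. In the preadipocyte class Il1r2 rose by 0.76 ± 0.13 (54.5 and 46.3 against 82.3 and 89.3 CPM, adjusted p = 0.0343) and Il1r1 fell by 0.76 on the log2 scale (170 and 151 against 107 and 85.6 CPM, SE 0.12, adjusted p = 0.0265), against 4.67% of genes. In ECM remodeling cells Il34, which that class leads, fell (112 and 91.9 against 51.3 and 46.7 CPM, -1.12 ± 0.13, adjusted p = 0.0252), against 1.15% of genes. In lobular cells none of the 9 members tested passed, against 2.38% of genes; 3 of the 9 had an unadjusted p under 0.05, as did 13.9% of genes. Without placebo 1 or placebo 2 only Il1r2 in adipogenesis-regulatory cells kept its call in both cases (adjusted p 0.0103 and 0.0441), Il33 there had 0.0359 and 0.0971, and Il33 and Il6 in progenitor cells had adjusted p of 0.13 to 0.17. Il34 in ECM remodeling cells had 0.137 and 0.0584 in these fits. In preadipocyte cells Il1r2 had 0.18 and 0.221 and Il1r1 0.159 and 0.156, and without MPA+E 2 they had 0.0761 and 0.0823.

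The Il6 response differed between classes. In adipogenesis-regulatory cells Il6 was at 416 and 591 CPM under placebo and 310 and 724 CPM under MPA+E, with overlapping groups, and the interaction of hormone with class put the progenitor change below the mean change of the other named classes by 1.64 on the log2 scale (edgeR, SE 0.25, adjusted p = 0.00117). No other member passed that interaction test, which called 3.75% of genes, and the Il33 difference was -0.32 ± 0.13 (adjusted p = 0.222). With each of the 4 libraries left out in turn the Il6 difference lay between -1.97 and -1.31, with adjusted p of 0.00111 to 0.0218.

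**Figure D3:**
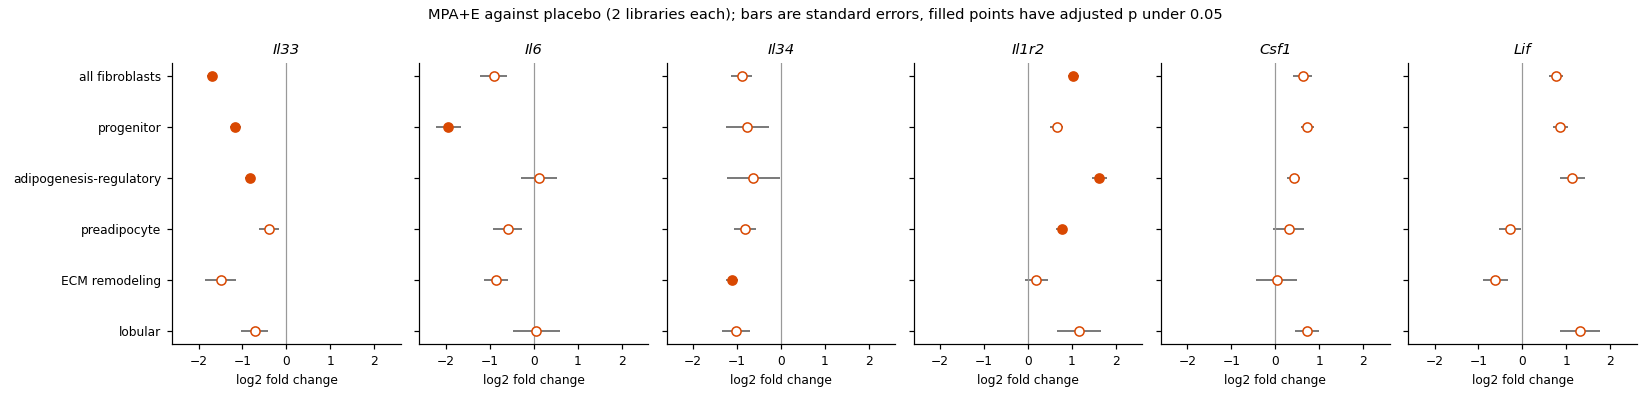
Log2 fold change of MPA+E against placebo for 6 genes over all fibroblasts and within 5 classes (points). Bars are standard errors derived from the edgeR F statistic, and filled points have an adjusted p under 0.05. Il33 lies under 0 in every row, Il1r2 above 0 in every row, and Il6 is lowest in the progenitor row (-1.94) and near 0 in the adipogenesis-regulatory (0.12) and lobular (0.06) rows.

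An unnamed cluster of the hormone libraries, cluster 4, led by Cxcl13, Ctla2a and Tgm2 and with Pgr, the progesterone receptor, among its leading genes, changed its share along with these levels. It held 6.17% and 7.10% of fibroblasts under placebo and 18.4% and 19.6% under MPA+E, while the progenitor class held 30.6% and 33.2% against 14.9% and 18.7%. Inside it Il1r2 was at 161 and 202 CPM under placebo and 316 and 354 CPM under MPA+E, and it then held 54.0% and 57.4% of all Il1r2 UMIs. Csf1 was at 345 and 312 against 474 and 561 CPM, Lif at 3.34 and 6.59 against 10.2 and 14.0 CPM, and Il33 at 153 and 105 against 26.4 and 33.7 CPM. The direction of each gene in this cluster was that of the whole. When the cluster was joined to the progenitor class, to which its markers were closest, 5 members passed by edgeR in the joined class, against 11.3% of genes (a choice made after the data were seen): Il33 at -1.69 (adjusted p = 0.00213), Il1r2 at 1.19 (0.00293), Csf1 at 0.96 (0.012), Lif at 1.16 (0.0203) and Il6 at -1.42 (0.024). The shares of cluster and class moved in opposite directions under MPA+E, so the joined values mix share with level. Of the 7 progenitor markers, 1 was raised at least 2-fold in the cluster.

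In tumors, Lif, Il11, Il33 and Il34 were higher and Il18 and Il1r2 lower than in the hyperplastic glands of the same mice. Lif, which lay between 3.22 and 7.13 CPM in all libraries outside the tumors, was at 3.70 and 4.63 CPM in hyperplasia and 20.3 and 55.5 CPM in the tumors (log2 fold change 3.01 ± 0.51, limma-voom, adjusted p = 0.0129). Il11 was at 4.34 and 3.62 CPM in hyperplasia and 9.71 and 19.3 CPM in tumors (1.80 ± 0.38, adjusted p = 0.0207), and Il33 at 68.9 and 135 against 316 and 303 CPM (1.69 ± 0.32, adjusted p = 0.0168). Il34 was at 31.3 and 43.6 against 67.8 and 71.0 CPM (0.91 ± 0.21, adjusted p = 0.0261). Both tumor libraries lay above both hyperplasia libraries for each of these ligands; libraries did not overlap for 7 of 10 members in this comparison, against 72.2% of all genes tested, so that separation is common here. In 61 epithelial barcodes of hyperplasia 2 Il11 was at 18.4 CPM (95% counting interval 9.17 to 32.9), above the fibroblasts of that library. In 101 of tumor 2 it was at 2.84 CPM (0.586 to 8.31), under them. Lif was at 8.35 CPM (2.71 to 19.5) in the epithelial barcodes of hyperplasia 2 and 0.948 CPM (up to 5.28) in those of tumor 2. The part of epithelial RNA in the Il11 and Lif values was not tested. Of 12 dissociation-induced genes 6 were called lower and 1 higher in tumors (median change -1.09), and their part in the member changes was not tested either. Pericyte markers rose beside them (2 of 5 called higher). Wild-type pericytes carried Il6 at 600 CPM and Il34 at 82.8 CPM but Il33 at 1.41 and Lif at 0.804 CPM. The part of pericyte RNA in the tumor changes of Il6 and Il34, within classes too, was not tested. The members that fell were Il18, at 24.5 and 44.4 CPM in hyperplasia and 12.2 and 6.87 CPM in tumors (-1.84 ± 0.36, adjusted p = 0.0179), and Il1r2, at 42.1 and 51.3 against 21.9 and 17.0 CPM (-1.26 ± 0.20, adjusted p = 0.0113). In all 6 of 10 members passed, against 29.3% of the 16302 genes tested, so calls were frequent in this comparison; the median change was 0.69 over the members and -0.01 over all genes.

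The remaining members did not pass in this fit. Csf1 was at 182 and 187 CPM in hyperplasia and 259 and 254 in tumors (0.48 ± 0.16, adjusted p = 0.0656), Il1r1 at 97.6 and 105 against 100 and 158 CPM (adjusted p = 0.33) and Tslp at 15.7 and 11.8 against 13.5 and 13.2 CPM (adjusted p = 0.954). Il6 was at 252 and 115 CPM in hyperplasia and 528 and 231 CPM in tumors (1.03 ± 0.50, adjusted p = 0.156), so the groups overlapped, but within each mouse the tumor held about the same multiple of its hyperplasia. Libraries were paired by replicate number and age, as the study took both tissues from the same mouse. With the mouse as a block, the Il6 change was 1.03 ± 0.14 with an adjusted p of 0.0181 (limma-voom), and the other 6 calls were kept, against 30.6% of genes called in that fit. Leaving out hyperplasia 1 removed all 6 calls (adjusted p 0.0578 for Il18, 0.0686 for Il1r2, 0.0739 for Il33, 0.101 for Lif, 0.12 for Il11 and 0.151 for Il34), with 242 genes called in all. Leaving out hyperplasia 2 left Il33 alone (adjusted p = 0.0358), with 314 genes called. The directions of the 6 called members held in each of these fits.

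The classes of the raGFP-Wnt1 libraries were unequal in size between the groups. The progenitor class held 22.2% and 26.3% of fibroblasts in hyperplasia and 27.0% and 3.68% in the tumors, ECM remodeling cells 45.1% and 40.7% against 12.5% and 12.3%, and clusters without a name 7.78% and 8.92% against 44.0% and 69.1%. Tumor 2 had 1 lobular cell, so that class was not compared. Within the progenitor class Il33 was at 217 and 352 CPM in hyperplasia and 405 and 265 CPM in tumors, with overlapping groups (0.26 ± 0.30, limma-voom, adjusted p = 0.641). Il18 alone passed there (74.2 and 112 against 29.1 and 22.0 CPM, -1.71 ± 0.25, adjusted p = 0.025), against 3.24% of genes. With the mouse block Il1r2 (106 and 107 against 44.3 and 17.1 CPM, -1.63, adjusted p = 0.0177) and Il6 (413 and 139 against 748 and 759 CPM, 1.75, adjusted p = 0.0356) passed as well, against 12.5% of genes in that fit. Without hyperplasia 1 or hyperplasia 2 the adjusted p of Il18 in this class was 0.0739 or 0.11.

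Outside the progenitor class Il33 was of another order in the tumors. In preadipocyte cells it was at 3.42 and 6.89 CPM in hyperplasia and 257 and 243 CPM in tumors (5.59 ± 0.29, limma-voom, adjusted p = 0.00266). In ECM remodeling cells it was at 2.63 and 3.16 against 64.1 and 124 CPM (4.79 ± 0.37, adjusted p = 0.00847), and in adipogenesis-regulatory cells at 40.6 and 69.7 against 402 and 656 CPM (3.16 ± 0.30, adjusted p = 0.00145). No tumor value overlapped a hyperplasia value in any of the 3 classes, and the progenitor class, which had held 84.5% and 86.2% of Il33 UMIs in hyperplasia, held 31.1% and 2.86% in the tumors. These fits in the other classes were added after the data had been seen. Classes were named over the raGFP-Wnt1 libraries together, and the tumor cells of a class were not checked for its markers on their own. The study itself found no Cd36+ committed preadipocytes in tumors. The call in ECM remodeling cells was lost without hyperplasia 2 (adjusted p = 0.0571); in the other 2 classes Il33 was called with any 1 library left out. The interaction of tumor with class put the progenitor change of Il33 4.19 below the mean change of the other named classes on the log2 scale (edgeR, SE 0.31, adjusted p = 1.07e-05), and between -4.71 and -3.73 with each library left out. In 101 epithelial barcodes of tumor 2 no Il33 UMI was counted, which allows up to 3.50 CPM, whereas the fibroblasts of the same library stood at 303 CPM. In 61 epithelial barcodes of hyperplasia 2 there were 3 Il33 UMIs (5.01 CPM, 95% counting interval 1.03 to 14.6). In preadipocyte and ECM remodeling cells of that library Il33 was not above this interval. Hyperplasia 1 had 7 epithelial barcodes, too few for such a level. Whether epithelial values are free RNA or expression by epithelial cells was not tested.

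Il34 behaved likewise in direction. It was at 3.81 and 3.43 CPM in adipogenesis-regulatory cells of hyperplasia and 19.95 and 69.4 CPM in those of tumors (3.15 ± 0.63, limma-voom, adjusted p = 0.0267) and at 11.0 and 13.9 against 24.9 and 25.9 CPM in preadipocyte cells (1.02 ± 0.20, adjusted p = 0.0389). In the progenitor class it was at 53.7 and 68.4 against 43.8 and 23.4 CPM, and the interaction difference was -2.53 ± 0.41 (adjusted p = 0.00267). Epithelial barcodes held Il34 at 11.7 CPM (4.70 to 24.1) in hyperplasia 2 and 9.48 CPM (4.55 to 17.4) in tumor 2. The hyperplasia 2 levels under the Il34 folds of both classes were not above the epithelial interval of that library. In adipogenesis-regulatory cells the level was under that interval. Lif rose in ECM remodeling cells, from 1.43 and 1.71 CPM to 9.99 and 25.1 CPM (3.20 ± 0.53, limma-voom, adjusted p = 0.0308). In epithelial barcodes Lif was at 8.35 CPM (2.71 to 19.5) in hyperplasia 2 and 0.948 CPM (up to 5.28) in tumor 2. The hyperplasia 2 level under this Lif fold was lower than the epithelial interval of that library. With the mouse block Il6 passed in ECM remodeling cells (165 and 72.4 against 427 and 201 CPM, adjusted p = 0.00718) and in preadipocyte cells (221 and 108 against 759 and 427 CPM, adjusted p = 0.000794), Il34 passed in ECM remodeling cells (adjusted p = 0.0128) and Csf1 (adjusted p = 0.0112) and Tslp (adjusted p = 0.0257) passed in preadipocyte cells. The block fits called 26.1% of all genes in ECM remodeling and 23.9% in preadipocyte cells, so calls were frequent there. The shares of all genes called without the block were 5.55% in preadipocyte, 8.72% in ECM remodeling and 4.44% in adipogenesis-regulatory cells and 6.89% for the interaction, in which Il1r2 (-1.47 ± 0.37, adjusted p = 0.0307) and Il18 (-1.16 ± 0.29, adjusted p = 0.0287) passed too. Of the calls of this paragraph, Il34 in preadipocyte cells, Lif in ECM remodeling cells and the Il1r2 interaction were lost without either hyperplasia library (adjusted p 0.122 and 0.088, 0.164 and 0.162, and 0.144 in both cases). Those of Il34 and Il18 in the interaction were lost without hyperplasia 2 (0.0981 and 0.285), and that of Il18 also without tumor 1 (0.194) or tumor 2 (0.0963). The preadipocyte call of Il34 was lost without tumor 1 (0.104) or tumor 2 (0.0636) as well, and the Il1r2 interaction without tumor 2 (0.0591).

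The clusters without a name, with 44.0% and 69.1% of tumor fibroblasts, held 84.1% and 86.4% of the Lif UMIs of the tumors, 72.5% and 79.5% of those of Il11, 70.1% and 73.1% of those of Il34, 53.9% and 82.7% of those of Il33 and 38.4% and 66.9% of those of Il6. Cluster 2 of the raGFP-Wnt1 libraries, led by Igfbp2, Fmod and Col11a1, grew from 3.86% and 3.54% of fibroblasts to 24.2% and 29.1%. Il33 in it was at 7.16 and 7.76 CPM in hyperplasia and 303 and 522 CPM in tumors, Lif at 0.551 and 2.43 against 37.5 and 73.0 CPM, and Il34 at 30.8 and 51.9 against 124 and 129 CPM. Cluster 3, led by Adamts8, Pthlh and Ccdc3, grew from 1.36% and 1.47% to 17.0% and 39.6%. Il11 was at 31.5 and 22.1 CPM (30 and 26 UMIs) in cluster 3 of hyperplasia and 19.1 and 25.5 CPM in that of tumors, and the cluster's part of all Il11 UMIs went from 12.2% and 9.92% to 42.3% and 62.5%. In cluster 2 Il11 was at 3.85 and 5.82 against 10.1 and 12.1 CPM. In the progenitor class it was at 2.90 and 2.22 against 5.34 and 8.02 CPM (1.25 ± 0.32, limma-voom, adjusted p = 0.085, and 0.98 to 1.77 with each library left out). Il33 was at 2.10 and 19.5 against 339 and 239 CPM in this cluster, and Il6 at 142 and 111 against 651 and 274 CPM. Cluster sizes are given as values, since the clusters were found in these same cells.

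**Figure D4:**
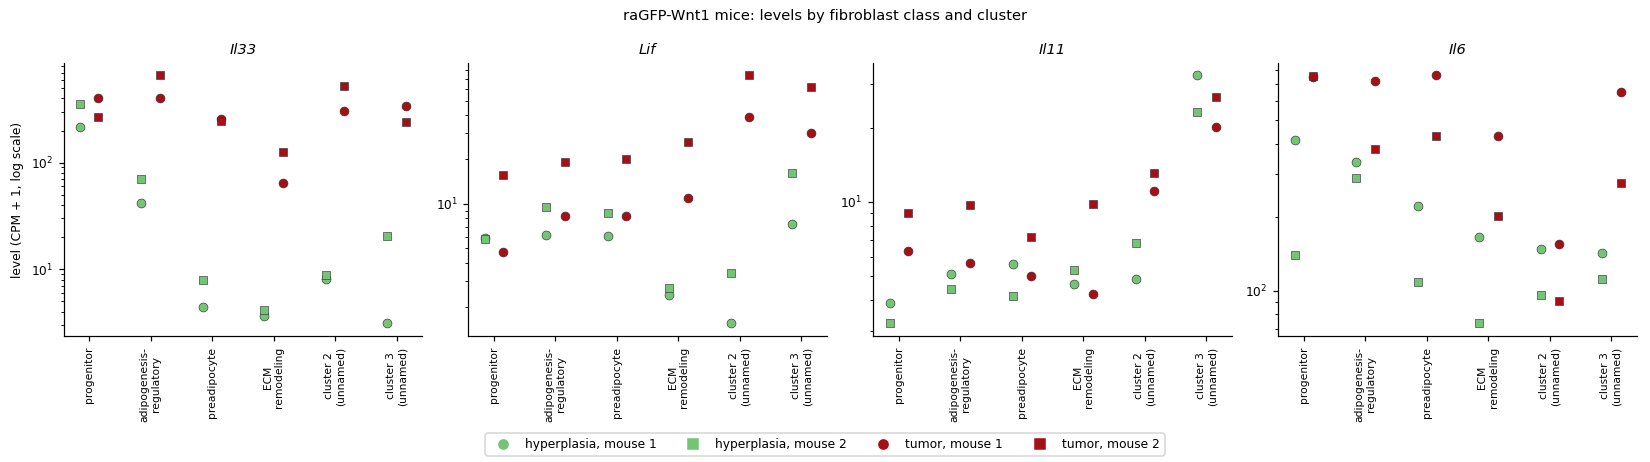
Level of Il33, Lif, Il11 and Il6 (CPM + 1, log axis) in 4 named classes and 2 unnamed clusters of the raGFP-Wnt1 libraries; green points are hyperplasia, red points tumors, circles mouse 1 and squares mouse 2. Il33 is separated by group everywhere except in the progenitor class, whereas Il11 is high in cluster 3 of both groups.

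Against the normal virgin gland (puberty and adult joined), hyperplasia had more Il34 and less Il18. Il34 was at 13.03 and 18.3 CPM in the normal libraries and 31.3 and 43.6 in hyperplasia (1.21 ± 0.22, limma-voom, adjusted p = 0.0267), and Il18 at 83.8 and 90.2 against 24.5 and 44.4 CPM (-1.43 ± 0.35, adjusted p = 0.0463). These were 2 of 10 members, against 14.0% of genes. Il1r2 (64.6 and 81.6 against 42.1 and 51.3 CPM, adjusted p = 0.0688), Il1r1 (56.7 and 75.3 against 97.6 and 105 CPM, adjusted p = 0.116) and Il6 (81.5 and 69.1 against 252 and 115 CPM, adjusted p = 0.141) did not pass. The groups did not overlap for these 3, for Il34 and Il18 and for Il11 and Lif, 7 of 10 members against 70.6% of all genes tested. Strain, age, genotype and the cell sort differ between these groups together with the lesion and cannot be told apart. Both calls were lost without any 1 of the puberty, adult, hyperplasia 1 or hyperplasia 2 libraries (adjusted p 0.076 to 0.159 for Il34 and 0.0927 to 0.237 for Il18, with 8, 183, 2 and 1 genes called). The Il18 call was also lost with edgeR (adjusted p = 0.0514) and with no gate on cell type (0.0578), and DESeq2 kept it (0.00272). Summed dissociation-induced genes were at 18940 and 23614 CPM in the normal libraries, 42800 and 36676 CPM in hyperplasia and 23278 and 16581 CPM in the tumors. The library with the most of them, hyperplasia 1, also had the higher Il6 of its group, and their part in the Il6 values was not tested.

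The fibroblasts carried part of the receptors for these ligands. Of 16 receptors and binding partners listed, 14 were tested. Over all genes 4.33% passed under MPA+E, 29.3% in tumors and 14.0% in hyperplasia against normal. Under MPA+E 2 of the 14 rose, Il18bp, the soluble binding protein of IL-18 (1.61), and Sdc1 (0.59). In tumors against hyperplasia 5 of the 14 passed by limma-voom, 6 by edgeR (4614 of 16302 genes) and 8 by DESeq2 (5668 genes). By limma-voom 3 rose, the IL-33 receptor Il1rl1 (log2 fold change 3.57, from 6.94 and 4.58 CPM to 50.7 and 85.8 CPM), Csf1r (2.74, at most 4.1 CPM) and Il11ra1 (1.20), and 2 fell, Il6ra (-2.37) and Cntfr (-1.48). In hyperplasia against normal Lifr (1.19) and Cntfr (1.10) were higher and Il1rl1 (-1.75) and Il11ra1 (-1.14) lower. The median change over the 14 was 0.05 under hormone, 0.18 in tumors and -0.16 in hyperplasia, against 0.01, -0.01 and -0.01 over all genes. Csf1r marks macrophages, and the immune marker sum rose in the tumors beside it, as given above; its part was not tested.

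Among 21 other interleukin receptors, of which 16 were tested, Il13ra1 fell under MPA+E (-1.51). In tumors 5 of the 16 passed by each of the 3 tools, against 29.3% of all genes by limma-voom: Il13ra2 (4.04), Il2rg (0.0885 and 0.0414 CPM in hyperplasia, 0.449 and 1.22 CPM in tumors) and Il15ra (0.55) rose and Il31ra (-4.95) and Il1rl2 (-0.85) fell, and in hyperplasia against normal Il27ra (1.93) and Il15ra (0.93) were higher and Il31ra (-3.96) and Il17rc (-0.71) lower. Of 25 other cytokines and antagonists of the same families, 14 were tested under hormone, where Il16 rose (1.40) and Il17d fell (-1.09). In tumors 15 were tested, of which 6 rose and 4 fell, against 29.3% of all genes; those that rose included Csf2 (0 and 0.0414 CPM in hyperplasia, 3.69 and 3.54 CPM in tumors), Csf3 (0.0354 and 0.29 against 3.80 and 3.35 CPM) and Il1rn, the interleukin 1 receptor antagonist (0 and 0 against 0.195 and 1.39 CPM), and Il17d, Tnf, Flt3l and Il16 fell. Most immune markers rose in the tumors as well (4 of 6 called higher and 1 lower, against 29.3% of all genes), and their part in these low levels was not tested. In hyperplasia against normal 0 of the 15 passed by limma-voom or edgeR and 1 by DESeq2, 3 had an unadjusted p under 0.05 by limma-voom, and the median change was 0.04. Of 22 response genes of IL-6 and interleukin 1 signaling, 0 passed under MPA+E by edgeR or limma-voom and 1 by DESeq2, 3 had an unadjusted p under 0.05 by edgeR, and the median change was -0.48. In tumors 8 of them passed by limma-voom, 7 by edgeR and 10 by DESeq2. By limma-voom 6 rose, led by Cxcl5 (5.47), Cxcl2 (3.23), Saa3 (2.94) and Ccl2 (2.18), and Junb (-1.06) and Cebpd (-0.93) fell, with a median change of 0.21, beside the falls of dissociation-induced genes given above. In hyperplasia against normal 5 of the 22 were higher, against 14.0% of all genes, with a median change of 0.24. Dissociation-induced genes moved the same way there (3 of 12 called higher and 0 lower, median change 0.89), and their part was not tested.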

How the data were processed

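Single-cell suspensions of 13 mammary stroma samples were sequenced. The deposited matrices give, for every barcode, the unnormalized UMI counts of each gene, made by the authors with Cell Ranger (version 6.1.2 and build mm10, per the submitters' processing notes) as filtered matrices. Counts were summed over the fibroblast barcodes of each library, and over each class, with Python 3.11.15. The members, the gene lists and the tests were chosen with earlier results of these data known. Doublets were called with Scrublet (scanpy 1.11.5) at an expected 0.8% per 1000 barcodes, marked 3.86% to 10.6% of barcodes within the limits, and were kept in the sums over all fibroblasts, where leaving them out was an alternative.

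Clustering (Seurat 5.3.0, R 4.3.3) used 1000 features without any member or listed gene, 30 components, 20 neighbours and a resolution of 0.3. The rule that names a cluster from fixed markers was completed after the cluster tables had been seen. Class sums needed at least 50 cells. Hormone comparisons used edgeR 4.0.16 (quasi-likelihood) on the 4 hormone libraries, and normal (puberty and adult), hyperplasia and tumor were fitted together with limma-voom (limma 3.58.1), with Benjamini-Hochberg adjustment over all genes tested and a threshold of 0.05. The tests were also run on simulated counts that had the same spread for every gene and no mouse or class effects. That run does not cover the spread of the real libraries. Standard errors given with edgeR were derived as the absolute log2 fold change over the square root of the F statistic. Alternatives were DESeq2 1.42.0, edgeR, no low-count filter, no gate, stricter limits, each library left out and a replicate block. Hyperplasia and tumor libraries of 1 number came from 1 mouse, so the numbers pair them; the correlation of their deviations was 0.0954 over 16001 genes. All members are named; of each list at most 4 genes per direction are named by the size of change. Some genes that this rule would name are not reported here. Depth is given in the report as ranges over libraries, and intervals cover counting error only.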

Additional observations from a re-analysis of the deposited data

Results flagged for a closer look

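The response of Il6 to MPA+E in progenitor cells lay below that in the other named classes by an interaction of -1.64 on the log2 scale, which passed the test of the difference. The part of dissociation-induced genes in this response was not tested. In the tumors the progenitor change differed in the same sense from the mean change of the other named classes for Il33 (-4.19), Il34 (-2.53), Il1r2 (-1.47) and Il18 (-1.16), by an interaction chosen after the data had been seen. With each library left out these differences lay between -4.71 and -3.73, -3.60 and -1.86, -2.66 and -0.95, and -1.38 and -0.92, and those of Il34, Il1r2 and Il18 no longer passed without 1 or more of the libraries named in the report. In hyperplasia 2 the levels of Il33 and Il34 in some of the other classes were not above the epithelial interval of that library.

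Pericyte and epithelial barcodes of the 9 wild-type libraries were outside the comparisons of fibroblasts. In pericytes Il6 was at 600.3 CPM, Il34 at 82.8 CPM, Tslp at 31.4 CPM and Il1r1 at 112 CPM, above the wild-type fibroblast levels of 154, 20.5, 10.6 and 85.0 CPM. In epithelial cells Il11 was at 5.39 CPM (95% counting interval 3.29 to 8.32) against 2.37 CPM in fibroblasts. These levels were not tested between libraries.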

How the results depend on the processing

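A first set of alternative values covered single genes and counts of genes called in class fits, and 861 of them stayed the same. For a single gene this means the same direction and the same side of the threshold. Of the single-gene values, 94 newly passed the threshold, 54 no longer passed it and 56 changed sign, none of which passed in that fit. The 37 values of this set that moved were counts of genes called in class fits. A further set covered the main counts (members and genes called, and the 2-fold counts of the stages) and the class excesses. In it 122 values stayed the same and 69 moved. Leaving out 1 library gave 0 to 5 called members (22 to 900 genes) under MPA+E, 0 to 7 (242 to 7120 genes) in tumors against hyperplasia and 0 to 5 (1 to 4810 genes) in hyperplasia against normal. It gave 1 to 10 members over the hormone classes, 1 (172 to 605 genes) for the hormone interaction and 1 to 5 (79 to 1490 genes) for the tumor interaction. In tumor classes it gave 0 to 7 members (5 to 1583 genes) in progenitor, 0 to 6 in ECM remodeling, 2 to 4 in adipogenesis-regulatory and 1 to 2 in preadipocyte cells. DESeq2 called 5 members (1358 genes) under MPA+E and 4 (4017 genes) in hyperplasia against normal, where edgeR and the fit with no gate called 1 each. With no low-count filter the hormone interaction called 2 members (1030 genes), the hormone classes 17, the tumor progenitor class 3 (735 genes) and the tumor interaction 8 (1528 genes). The hormone libraries share only a number, and their deviations correlated at 0.396 by number; a replicate block there called 6 members (2451 genes) over all fibroblasts and 18 over the classes. The mouse block called 7 members (4898 genes) in tumors against hyperplasia, and 3 (1621 genes) in progenitor, 4 (3387 genes) in ECM remodeling and 5 (2904 genes) in preadipocyte cells. Adding the Cxcl13-led cluster to the progenitor class gave 5 members (1552 genes) under MPA+E, and with no gate 343 genes differed at least 2-fold between pregnancy and adult. Over the alternatives the genes called under MPA+E in a class reached 1724 in ECM remodeling, 2002 in adipogenesis-regulatory and 832 in lobular cells. They reached 2330 in preadipocyte and 1552 in progenitor cells. The causes of these shifts were not tested. Depth limits Il11, Lif and Tslp most.

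Log2 changes that turned sign with 1 library left out are given as ranges over the libraries left out. Under MPA+E over all fibroblasts Il11 ranged from -0.16 to 0.30 and Il18 from -0.49 to 0.14. In tumors against hyperplasia Tslp ranged from -0.24 to 0.19. In hyperplasia against normal Csf1 ranged from -0.26 to 0.028 and Il33 from -0.27 to 0.68. Under MPA+E in ECM remodeling cells Il1r2 ranged from -0.11 to 0.58, Csf1 from -0.79 to 0.57 and Il18 from -0.31 to 0.48. Under MPA+E in adipogenesis-regulatory cells Il1r1 ranged from -0.032 to 0.19, Il6 from -0.71 to 0.65, Il11 from -1.02 to 0.49, Il34 from -1.92 to 0.18, Il18 from -0.29 to 0.76 and Tslp from -0.24 to 0.24. Under MPA+E in lobular cells Il6 ranged from -1.05 to 0.74 and Tslp from -0.33 to 0.22. Under MPA+E in preadipocyte cells Csf1 ranged from -0.24 to 0.71 and Tslp from -0.29 to 0.13. Under MPA+E in progenitor cells Il1r1 ranged from -0.12 to 0.16 and Il18 from -0.13 to 0.33. In the hormone interaction Il34 ranged from -0.60 to 0.54 and Tslp from -0.10 to 0.28. In tumor progenitor cells Lif ranged from -0.34 to 1.67 and Il33 from -0.039 to 0.61. In tumor ECM remodeling cells Il1r1 ranged from -0.19 to 0.34, Il11 from -0.35 to 0.98 and Tslp from -0.97 to 0.51. In tumor adipogenesis-regulatory cells Il1r2 ranged from -0.92 to 0.12 and Tslp from -0.19 to 0.25. In tumor preadipocyte cells Il1r2 ranged from -0.43 to 0.022, Il1r1 from -0.14 to 0.55 and Il11 from -0.10 to 0.73. In the tumor interaction Csf1 ranged from -0.37 to 0.0503, Il6 from -0.12 to 1.01 and Tslp from -0.30 to 3.18. The sign also turned with no low-count filter for Tslp in tumors against hyperplasia (0.0098), with the replicate block for Csf1 in ECM remodeling (-0.062), Tslp in adipogenesis-regulatory (0.0013) and Il6 in lobular cells (-0.0497) under MPA+E, and with the Cxcl13-led cluster added for Il11 (0.0525) and Il18 (-0.0508) in progenitor cells.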
